A study of Mus musculus with 6 samples.

Results

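The sarcomeric myosin heavy chain genes were examined in differentiating myoblasts of a myotonic dystrophy type 1 (DM1) model. The 8 genes were chosen by symbol (Myh1, Myh2, Myh3, Myh4, Myh6, Myh7, Myh7b and Myh8) out of 55421 genes in the deposited count table. Myosin heavy chains form the thick filaments of the sarcomere and use ATP to pull on actin. Myh3 (embryonic) and Myh8 (perinatal) are the developmental isoforms of skeletal muscle, and Myh2 (type 2A), Myh1 (type 2X) and Myh4 (type 2B) are the adult fast isoforms. Myh7 is the slow and beta-cardiac isoform, Myh6 is the alpha-cardiac isoform, and Myh7b is an ancient member that hosts a microRNA. Cultured myoblasts that begin to differentiate usually switch on the developmental isoforms first and the adult isoforms later.

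RNA-seq was performed on day 4 of myoblast differentiation with 3 libraries per group. All 6 libraries came from C2C12 cells, mouse myoblasts that can be made to fuse into multinucleated myotubes, stably transfected with a plasmid that carries 200 CTG repeats in the 3′UTR of GFP (the CUG200 or DM1 myoblasts). The control line (CUG200-ctrl) also carried the empty pLL4.0 vector, and the line labelled CUG200-m carried the same vector with a fragment that encodes miR-322 and miR-503. The repeat plasmid was therefore present in both groups, and the comparison asks what overexpression of miR-322 and miR-503 changed in DM1 myoblasts. The paper states that these microRNAs target the repeat RNA itself, and the level of that RNA in each line was not measured here. Stable lines were selected with G418 and puromycin, and neither the labels nor the methods say whether a line was 1 clone or a pool. Each group was its own line, so differences between the lines and effects of the microRNAs cannot be told apart. The methods describe 3 biological replicates for assays in general, and 3 technical ones, while the labels do not say that the libraries of a group came from separate cultures. The p-values measure the spread between these libraries, which may be technical if they did not. Total estimated counts lay between 73532084 and 92157388 per library, at about 4 counts per read pair. The precursor gene Mir322 had 1, 7 and 2 estimated counts in control libraries against 17, 0 and 3 in CUG200-m, and Mir503 had 1, 1 and 2 against 6, 4 and 5. Libraries of long RNA hold few such short precursors and no mature microRNA, so these counts do not check the overexpression.

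The mature sequences of the overexpressed microRNAs are shown because the seed is what pairs with a target. The seed, bases 2 to 8, is in capitals and differs between them in its last base, and both genes lie on chromosome X of GRCm38.p6 on the minus strand (RefSeq), the first at chrX:53054306-53054327 and the second at chrX:53054027-53054049.
mmu-miR-322-5p: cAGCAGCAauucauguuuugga
mmu-miR-503-5p: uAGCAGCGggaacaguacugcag
A full seed match reads TGCTGCT for miR-322-5p and CGCTGCT for miR-503-5p on the transcript strand. Neither heptamer was found in the annotated 3′UTR of any of the 8 genes, which are between 26 and 216 bases long in the transcripts used (GENCODE M21). Over 20834 genes with a 3′UTR, 22.5% held TGCTGCT and 4.65% held CGCTGCT. This background used the longest 3′UTR of each gene and left out very short ones. It was not matched in length to the 3′UTRs of the 8 genes, so it does not show whether their lack of sites is unusual. The hexamer GCTGCT that both sites contain was present in the 3′UTR of Myh8, once, and in 42.3% of the background 3′UTRs. In the coding sequence, TGCTGCT occurred once in Myh2, Myh3, Myh6, Myh7, Myh7b and Myh8 and was not found in Myh1 or Myh4. CGCTGCT occurred once in the coding sequence of Myh2, Myh6 and Myh7 and was not found in that of the other genes. The hexamer occurred in all 8 coding sequences, between 1 match in Myh4 and 7 in Myh7. These coding sequences are 5808 to 5829 bases long, and no share over the coding sequences of all genes was computed. The counts therefore do not show a trait of this family. These are matches of letters in the annotated transcripts, and their part in the results was not tested.

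Of the 8 genes, 5 lie in a row on chromosome 11 within 230 kb, all on the plus strand, in the order Myh3, Myh2, Myh1, Myh4 and Myh8. Their promoters are shown because the log2 fold changes along this row ranged from -2.88 to -0.05. Each sequence runs from 250 bases before to 50 bases after the gene's start in RefSeq (GRCm38.p6), and capitals mark a run of 14 bases that 4 of them share.
Myh3, chr11:67078050-67078349, plus strand: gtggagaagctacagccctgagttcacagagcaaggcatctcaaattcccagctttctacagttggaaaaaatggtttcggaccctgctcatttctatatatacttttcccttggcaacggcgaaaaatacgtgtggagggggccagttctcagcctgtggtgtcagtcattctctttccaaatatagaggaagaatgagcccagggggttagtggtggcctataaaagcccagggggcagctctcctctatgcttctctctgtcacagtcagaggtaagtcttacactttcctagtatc
Myh2, chr11:67170777-67171076, plus strand: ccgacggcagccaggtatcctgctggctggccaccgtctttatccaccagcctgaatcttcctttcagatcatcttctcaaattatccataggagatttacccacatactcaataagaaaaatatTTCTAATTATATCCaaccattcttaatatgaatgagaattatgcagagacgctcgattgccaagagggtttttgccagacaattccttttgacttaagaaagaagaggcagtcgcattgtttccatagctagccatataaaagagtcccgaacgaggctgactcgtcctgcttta
Myh1, chr11:67199852-67200151, plus strand: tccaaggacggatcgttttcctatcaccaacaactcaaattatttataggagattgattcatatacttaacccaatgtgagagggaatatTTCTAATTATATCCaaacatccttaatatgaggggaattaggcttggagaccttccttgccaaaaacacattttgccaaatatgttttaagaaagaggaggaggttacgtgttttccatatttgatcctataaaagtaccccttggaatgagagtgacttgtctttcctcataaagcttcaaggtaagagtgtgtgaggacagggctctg
Myh4, chr11:67237562-67237861, plus strand: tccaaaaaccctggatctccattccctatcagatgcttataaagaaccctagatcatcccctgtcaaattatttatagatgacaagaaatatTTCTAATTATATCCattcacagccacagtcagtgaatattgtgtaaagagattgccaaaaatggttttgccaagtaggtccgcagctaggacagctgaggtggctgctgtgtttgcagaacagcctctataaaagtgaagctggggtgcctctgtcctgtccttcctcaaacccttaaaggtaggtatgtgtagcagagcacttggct
Myh8, chr11:67276874-67277173, plus strand: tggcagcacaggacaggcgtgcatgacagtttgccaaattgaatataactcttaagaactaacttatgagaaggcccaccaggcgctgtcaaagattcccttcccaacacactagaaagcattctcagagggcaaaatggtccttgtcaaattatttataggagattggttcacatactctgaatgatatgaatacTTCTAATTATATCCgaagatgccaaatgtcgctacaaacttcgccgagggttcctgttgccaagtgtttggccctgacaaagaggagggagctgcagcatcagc
The run TTCTAATTATATCC began at position -125 relative to the start in Myh2, -160 in Myh1, -158 in Myh4 and -54 in Myh8. It was found in 4 of 32851 mouse promoters of this length, searched on both strands, and these were the 4 named. The Myh3 promoter did not hold it, and the longest run common to all 5 promoters was TCAAATT, with 7 bases. The run was found by comparing these promoters with each other, so its rarity elsewhere is a description. Positions count from the RefSeq start, which is the gene start of the deposited tables for Myh3, Myh2 and Myh8. For Myh1 it lies inside the gene as the tables give it, and for Myh4 the whole window lies before the gene start in the tables.

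Other motifs were searched on both strands of the same window. For Myh7, 2 promoters were listed and only the first was searched, so its counts hold for that start. The E box CANNTG, the motif bound by MyoD and myogenin, was not found in the Myh1 and Myh2 promoters, occurred once in Myh3 and Myh6, had 2 matches each in Myh7, Myh7b and Myh8, and had 3 matches in Myh4. It was present in 72.3% of all promoters. TATAAA occurred on either strand in 6 of the 8 promoters, all except Myh7 and Myh7b, against 13.6% of all promoters. In Myh8 the only match was on the strand opposite to the gene, inside the MEF2 match given below. The MEF2 matches of Myh1 and Myh4 hold TATAAA in the same way, beside matches on the gene's own strand. The M-CAT motif CATTCC, bound by TEAD factors, had 1 match each in Myh1, Myh4, Myh6 and Myh7 and was present in 14.7% of all promoters. The MEF2 consensus, with C or T as its first base and A or G as its last, had 1 match each in Myh1, Myh4 and Myh8 and was present in 3.2% of all promoters. The letters were TTATTTATAG in all of these promoters, beginning at positions -211, -182 and -99 relative to the start. A stricter form of the motif, with C first and G last, matched none of the 8 windows and 0.6% of all promoters. The CArG box was found once, in Myh4, against 1.6% of all promoters.

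Embryonic Myh3 was the most abundant of the 8 transcripts in both groups, followed by Myh1. TPM, an abundance scaled by transcript length and library size, was used to compare levels between genes. Myh3 stood at 176, 175 and 167 TPM in the control libraries and 146, 189 and 159 TPM in the CUG200-m libraries. The groups overlapped, and Myh3 ranked 810 among all genes by mean TPM in the control and 815 in the CUG200-m group. Myh1 was at 29.6, 31.3 and 28.1 TPM in the control and 9.11, 13.2 and 10.1 TPM in CUG200-m. Every control library was above every CUG200-m library. The mean TPM of Myh3 was 5.83 times that of Myh1 in the control and 15.2 times in the CUG200-m group.

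The order below these transcripts differed between the groups. In the control, mean TPM ran from Myh2 (6.48 ± 0.731, SD, n = 3) and Myh4 (4.94 ± 0.27) through Myh7 (1.72) and Myh8 (0.506) to Myh7b (0.426) and Myh6 (0.207). The ranges of Myh8 and Myh7b overlapped, and no other neighbours in this order did. In the CUG200-m group Myh4 came before Myh2, at 2.63 ± 0.36 against 0.905 ± 0.215 TPM. Myh2 there could not be separated by range from Myh7 (1.21) or Myh7b (0.852), nor Myh8 (0.231) from Myh6 (0.163). By coverage, the mean read depth per base, Myh2 and Myh4 overlapped in the control. The ratio of TPM to coverage, taken relative to Myh3, ran from 0.996 to 1.36 over the libraries for Myh1, Myh2 and Myh4 but reached 2.49 for Myh7b and 3.54 for Myh7, and both scales gave different orders among the low transcripts.

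**Figure D1:**
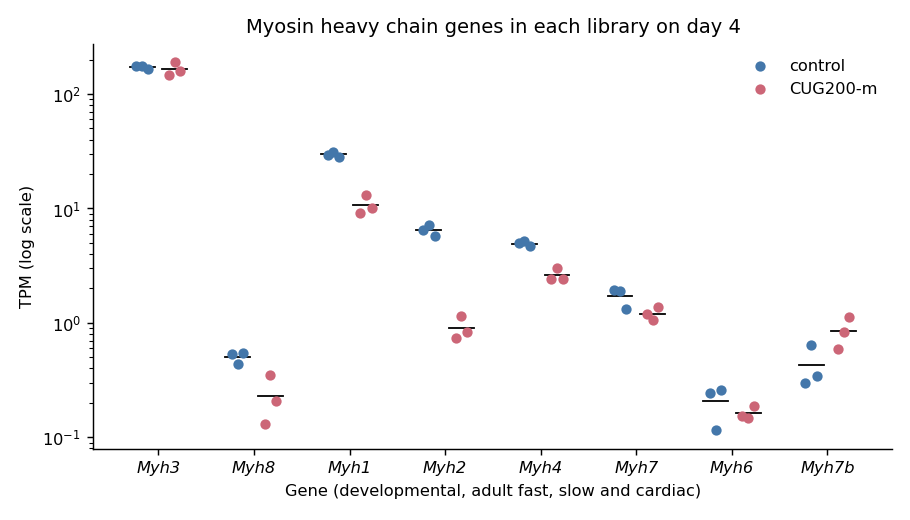
Level of each of the 8 sarcomeric myosin heavy chain genes in TPM on a log axis, 1 point per library, with a bar at the mean of each group of 3. Myh3 lay between 146 and 189 TPM in both groups, while the points of Myh1, Myh2 and Myh4 separated by group.

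The 3 adult fast genes were lower in CUG200-m, the embryonic gene Myh3 did not pass the test, and the remaining genes were low in all libraries. Differences were tested on counts by the quasi-likelihood F test of edgeR, adjusted after Benjamini and Hochberg over 18140 tested genes, and levels are given in CPM, a count scaled only by library size after TMM. Of the 8 genes, 4 were lower (Myh1, Myh2, Myh4 and Myh7), where 15.5% of all tested genes were lower. Myh7b alone was higher, where 13.2% of all tested genes were higher, and 3 genes did not pass. With a further requirement of an absolute log2 fold change over 1, 2 genes were lower (Myh1 and Myh2) against 5.29% of all tested genes, and 0 were higher against 4.59%. At the 0.05 level without that requirement, 28.8% of all tested genes changed in either direction. In CPM, 6 of the 8 genes had groups that did not overlap, against 45.1% of all tested genes. The median log2 fold change of the 8 genes was -0.79, and that of all tested genes was -0.01.

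The adult fast genes all fell in CUG200-m, the line labelled as overexpressing the microRNAs. Myh2 had 19.5, 21.8 and 18.4 CPM in the control and 2.33, 3.15 and 2.65 CPM in the CUG200-m group. The groups were far apart, with a mean of 19.9 ± 1.71 against 2.71 ± 0.413 CPM (SD, n = 3). The log2 fold change of Myh2 was -2.88 ± 0.14 (SE), which is 7.36-fold lower (edgeR, adjusted p = 1.06e-05).

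Myh1 had 82.1, 87.3 and 79.1 CPM in the control against 26.1, 34.8 and 31.1 CPM in CUG200-m. It retained 37.0% of the control level without overlap between the groups. The log2 fold change was -1.43 ± 0.11 (edgeR, adjusted p = 7.48e-05). Myh4 was at 15.5, 16.3 and 14.6 CPM in the control and 7.56, 9.56 and 8.16 CPM in the other group. It retained 54.4% of the control level, again without overlap, with a log2 fold change of -0.88 ± 0.11 (edgeR, adjusted p = 0.00109). The 95% intervals of the log2 fold change, not adjusted for the number of genes, were -3.21 to -2.55 for Myh2, -1.69 to -1.18 for Myh1 and -1.14 to -0.61 for Myh4. In bulk RNA, fewer cells that express a gene and less RNA of it per cell cannot be told apart.

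The developmental genes did not pass the test. Myh3 had 553, 560 and 534 CPM in the control and 457, 594 and 538 CPM in CUG200-m. Its CUG200-m libraries spread on both sides of the control, and the log2 fold change was -0.05 ± 0.09 with a 95% interval of -0.27 to 0.17 (edgeR, adjusted p = 0.735). Perinatal Myh8 was low, with 126, 118 and 151 estimated counts in control libraries against 40, 85 and 55 in CUG200-m. These correspond to between 10 and 38 read pairs per library. The groups did not overlap, at 1.62 ± 0.18 against 0.761 ± 0.358 CPM, and the log2 fold change was -1.09 ± 0.36 (edgeR, adjusted p = 0.0616). Without the second CUG200-m library, the highest of its group, the adjusted p of Myh8 was 0.0227, while the other 5 fits that left out a library gave 0.104 to 0.144. DESeq2 on all libraries gave 0.0369, and in all Myh8 passed in 3 of 16 alternatives.

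Slow and cardiac genes were near the lower end of what these libraries could measure. Myh7, the slow isoform, had 198, 321 and 263 estimated counts in control libraries against 183, 157 and 141 in CUG200-m. In CPM the groups did not overlap (3.19 ± 0.667 against 1.96 ± 0.116), while in TPM they did. The log2 fold change of Myh7 was -0.70 ± 0.20 (edgeR, adjusted p = 0.0335). Myh7b was the only one of the 8 genes that was higher, with 75, 90 and 85 estimated counts in control libraries against 137, 133 and 127 in CUG200-m. These counts come from 19 to 34 read pairs per library and the groups did not overlap in CPM. In TPM they did, at 0.299, 0.636 and 0.344 against 0.592, 0.836 and 1.13. The log2 fold change of Myh7b was 0.67 ± 0.20, a 1.6-fold increase (edgeR, adjusted p = 0.0431).

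Neither of these calls held in most fits that left out a library. Myh7 passed in 1 of 6 such fits, the one without the first control library, and its log2 fold change ranged from -0.83 to -0.53 over the 6 fits. Myh7b passed in none of them, with a log2 fold change from 0.61 to 0.76, and DESeq2 on all libraries gave an adjusted p of 0.0758. Myh6, the alpha-cardiac gene, had 61, 31 and 71 estimated counts against 47, 36 and 48. The groups overlapped, and no difference was detected on 8 to 18 read pairs per library (log2 fold change -0.31, 95% interval -1.21 to 0.58, edgeR, adjusted p = 0.601).

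**Figure D2:**
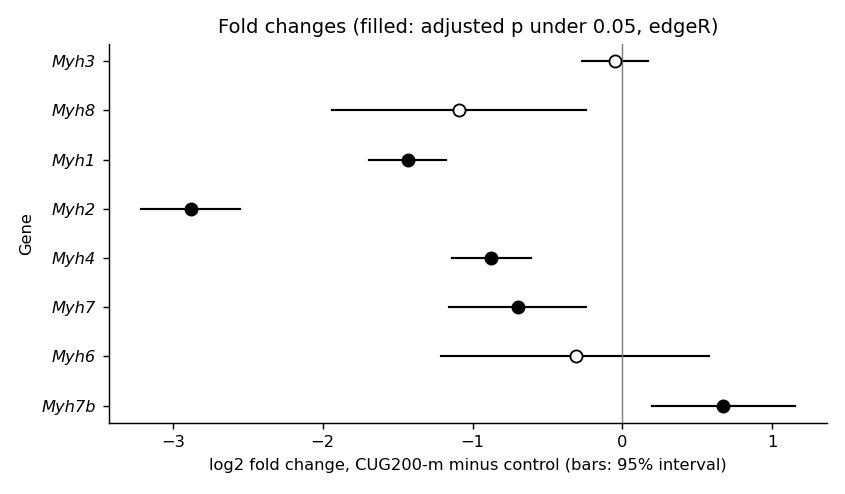
Log2 fold change (CUG200-m minus control) of each of the 8 genes with its 95% interval from edgeR, ordered by role and filled where the adjusted p was under 0.05. Myh2 lay lowest at -2.88, Myh3 at -0.05 and Myh7b highest at 0.67.

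The makeup of the family differed between the groups without overlap, while its summed level overlapped. The 8 genes together reached 220, 222 and 208 TPM in the control and 160, 209 and 176 TPM in CUG200-m. The groups overlapped, at 217 ± 7.37 against 181 ± 24.8 TPM (exact permutation test, two-sided, p = 0.2). The adult fast genes made up 18.6%, 19.7% and 18.5% of this sum in the control libraries and 7.66%, 8.36% and 7.63% in the CUG200-m libraries. The share was lower in every CUG200-m library, by a difference of -11.0 percentage points. Developmental genes made up 80.0% ± 0.765 in the control and 90.9% ± 0.239 in CUG200-m, a difference of 10.9 points without overlap. For both shares the exact permutation p was 0.1, the smallest that 3 against 3 libraries allow, and 0.15 after Benjamini-Hochberg adjustment over 3 shares.

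Within these groups of isoforms, single genes carried most of the share. Myh3 held 79.8% ± 0.732 of the sum in the control and 90.8% ± 0.282 in CUG200-m, while its own level did not pass the test. Myh1 went from 13.7% ± 0.353 to 5.94% ± 0.361, Myh2 from 2.98% ± 0.25 to 0.495% ± 0.0484 and Myh4 from 2.28% ± 0.0571 to 1.45% ± 0.0662. No library of one group reached the range of the other for any of these 4 genes (exact permutation, two-sided, p = 0.1 each, 0.133 after adjustment over the 8 genes). The small shares of Myh8 (0.234% to 0.123%) and Myh7b (0.196% to 0.471%) also did not overlap, with the same p-values from that test. Slow and cardiac genes together held 1.08% ± 0.141 and 1.24% ± 0.275 of the sum, and these overlapped (exact permutation, p = 0.4). From coverage in place of TPM, the adult fast share went from 16.7% to 6.97% and the developmental share from 82.7% to 92.4%.

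**Figure D3:**
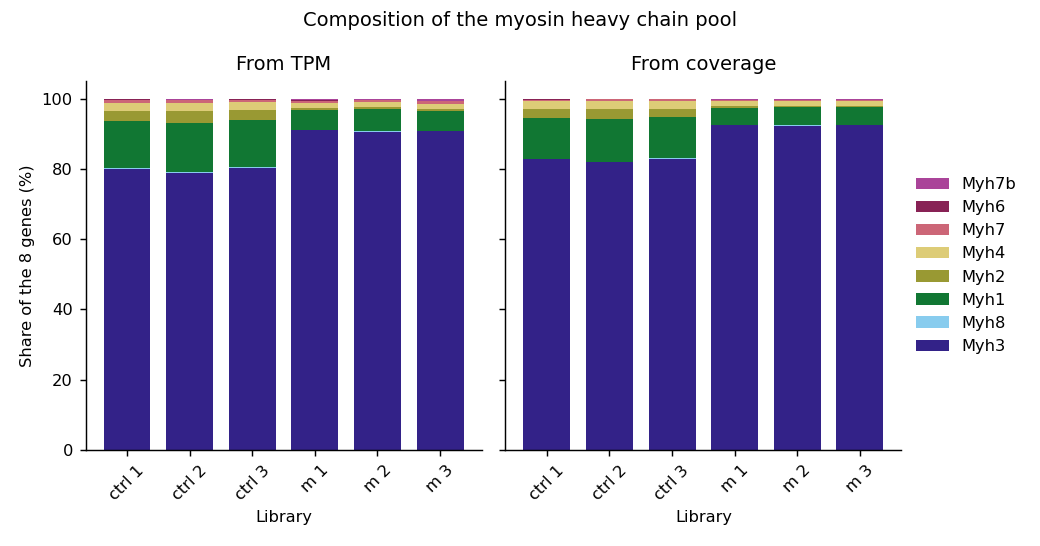
Stacked bars of the percentage of the 8-gene sum held by each gene in each of the 6 libraries, from TPM (left) and from coverage (right), with Myh3 at the bottom. From TPM, Myh3 filled between 78.9% and 80.3% of the bar in the control (ctrl) and between 90.5% and 91.0% in CUG200-m (m).

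The ratios between the adult fast genes also differed between the groups. Ratios of coverage between genes of the same library do not depend on library size. Myh2 coverage per 100 of Myh1 was 21.2, 22.2 and 20.7 in the control and 7.95, 8.03 and 7.52 in CUG200-m. Myh4 coverage per 100 of Myh1 was higher in CUG200-m, at 29.1 ± 1.46 against 19.7 ± 0.244. Myh2 and Myh4 were close to equal in the control, at 108 ± 3.75 of Myh2 per 100 of Myh4, and this ratio was 26.9 ± 0.875 in the CUG200-m group. Myh1 per 100 of Myh3 went from 14.4 ± 0.422 to 5.51 ± 0.069. In each of these 4 ratios the groups were fully separated (exact permutation, two-sided, p = 0.1, the smallest possible, and 0.1 after adjustment over the 4).

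The genes of the chromosome 11 row occupy chr11:67078300-67102291 (Myh3), chr11:67171027-67197517 (Myh2), chr11:67200052-67224575 (Myh1), chr11:67238029-67260446 (Myh4) and chr11:67277124-67308634 (Myh8). Beyond Myh8, at a distance of 13.0 kb, Myh13, the extraocular isoform, had 2.89 CPM in the control and 1.44 CPM in CUG200-m (log2 fold change -1.01 ± 0.18, edgeR, adjusted p = 0.00494). The next tested gene on that side, Gas7, was also lower, at -1.43 ± 0.30 (edgeR, adjusted p = 0.0109). On the Myh3 side, Sco1 had a log2 fold change of 0.16 and Adprm of -0.26, and neither passed (edgeR, adjusted p = 0.402 and 0.0653). Over 1352 tested genes of chromosome 11 the median log2 fold change was -0.01.

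Myh6 (chr14:54941921-54966927) and Myh7 (chr14:54970684-54994626) lie on the minus strand, 3.76 kb apart. Of the tested neighbours, Slc22a17 and Ngdn were lower, with log2 fold changes of -0.98 and -0.34 (edgeR, adjusted p = 0.00718 and 0.0497). Efs, on the Myh6 side, went from 7.29 CPM to 0.0175 CPM, and Zfhx2os did not pass (edgeR, adjusted p = 0.982). Over 631 tested genes of chromosome 14 the median was -0.06. Around Myh7b (chr2:155611212-155634307, plus strand), Gss, Gssos2, Trpc4ap and Edem2 did not pass, with log2 fold changes of -0.11, 0.60, -0.03 and -0.07.

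**Figure D4:**
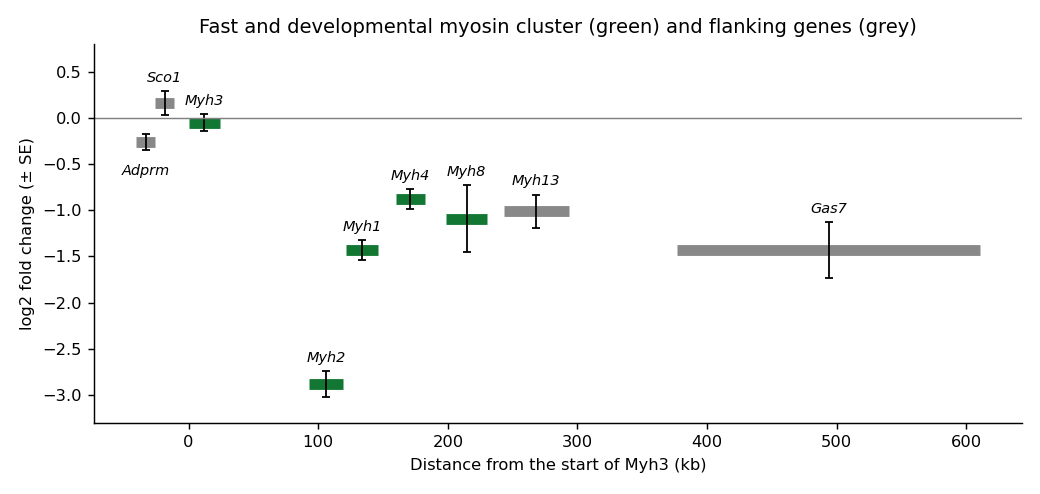
Log2 fold change (CUG200-m minus control) with its SE for the myosin row on chromosome 11 (green) and its nearest tested neighbours (grey), each bar as long as the gene, plotted against distance from the start of Myh3 in kb. The values stepped from -0.05 at Myh3 to -2.88 at Myh2, -1.43 at Myh1, -0.88 at Myh4 and -1.09 at Myh8.

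Sequence that several genes share bears on how reads can be assigned. Of all 150-base windows of the Myh1 transcript, 2.49% occur letter for letter in another gene, mostly in Myh2, which shares 2.06% of its own, and the longest run shared by Myh1 and Myh2 is 268 bases. For Myh3 and Myh4 the percentages are 0.31 and 0.51, and for Myh8 it is 1.6. Myh6 and Myh7 share 5.53% and 5.43% of their windows with each other, the highest percentages among the 8 genes. Myh7b shared none of its windows, and its longest run in common with another of the 8 genes was 33 bases. The last 37 bases of Myh7b overlap Trpc4ap, a gene of the opposite strand with 10521 to 14032 estimated counts per library. The sources do not say whether strand was used in counting, so reads of Trpc4ap in this overlap could not be told apart from reads of Myh7b. Mir208a, Mir208b and Mir499, the microRNA genes inside Myh6, Myh7 and Myh7b, had 0 counts in all 6 libraries. Mir6923, inside Myh3 on the same strand, had 3 to 19 counts per library.

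Myosin heavy chains outside the set were also lower where they passed. Of 6 such genes, 5 were tested, 3 were lower and 0 were higher, with a median log2 fold change of -0.98. Among all tested genes, 15.5% were lower and 13.2% were higher. Myh9 and Myh10, the non-muscle myosins of the cytoskeleton, were the abundant members, at 1700 and 123 CPM in the control, and had log2 fold changes of -0.27 and -0.36 (edgeR, adjusted p = 0.0105 and 0.00169). Myh13 was the third, and Myh15 had 0 counts in every library. Smooth muscle Myh11 did not pass, at 0.263 and 0.114 CPM.

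Genes of proteins that assemble or anchor the thick filament were higher where they passed. Of 16 such genes, 13 were tested, 7 were higher, 0 were lower and 6 did not pass, with a median log2 fold change of 0.31. Over all tested genes, 13.2% were higher and 15.5% were lower. Trim55 (MuRF2), a ubiquitin ligase of the M-band region, went from 11.4 ± 0.376 to 41.9 ± 1.33 CPM (log2 fold change 1.88, edgeR, adjusted p = 4.51e-06). Smyd1, a myosin chaperone and methyltransferase, went from 22.1 ± 1.95 to 58.9 ± 1.40 CPM (log2 fold change 1.41, edgeR, adjusted p = 2.24e-05). The other 5 that were higher were Trim54, Myom1, Myom2, Ttn and Hsp90aa1, with smaller changes. The chaperone Unc45b, which folds the myosin head, had a log2 fold change of -0.40 and did not pass (edgeR, adjusted p = 0.0818).

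Among 25 genes known to regulate myosin genes, 24 were tested, 9 were higher, 5 were lower and 10 did not pass, with a median log2 fold change of 0.13. The shares over all tested genes were 13.2% higher and 15.5% lower. Vgll2, a muscle cofactor of TEAD proteins, went from 0.188 ± 0.0834 to 26.6 ± 4.61 CPM (log2 fold change 7.13, edgeR, adjusted p = 5.39e-06). Mef2c, a transcription factor of muscle differentiation, went from 1.90 ± 0.513 to 23.3 ± 3.14 CPM (log2 fold change 3.61, edgeR, adjusted p = 2.23e-05). Prox1, which is linked to slow fibre genes, had 69, 112 and 137 estimated counts in control libraries and 0 in every CUG200-m library. It was at least 8.69-fold lower when each library at 0 was set to a floor of 12 counts, or 3 read pairs, which covers counting error only. Nfix, a driver of the fetal muscle programme, went from 682 ± 94.1 to 272 ± 48.1 CPM (log2 fold change -1.33, edgeR, adjusted p = 0.000616).

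**Figure D5:**
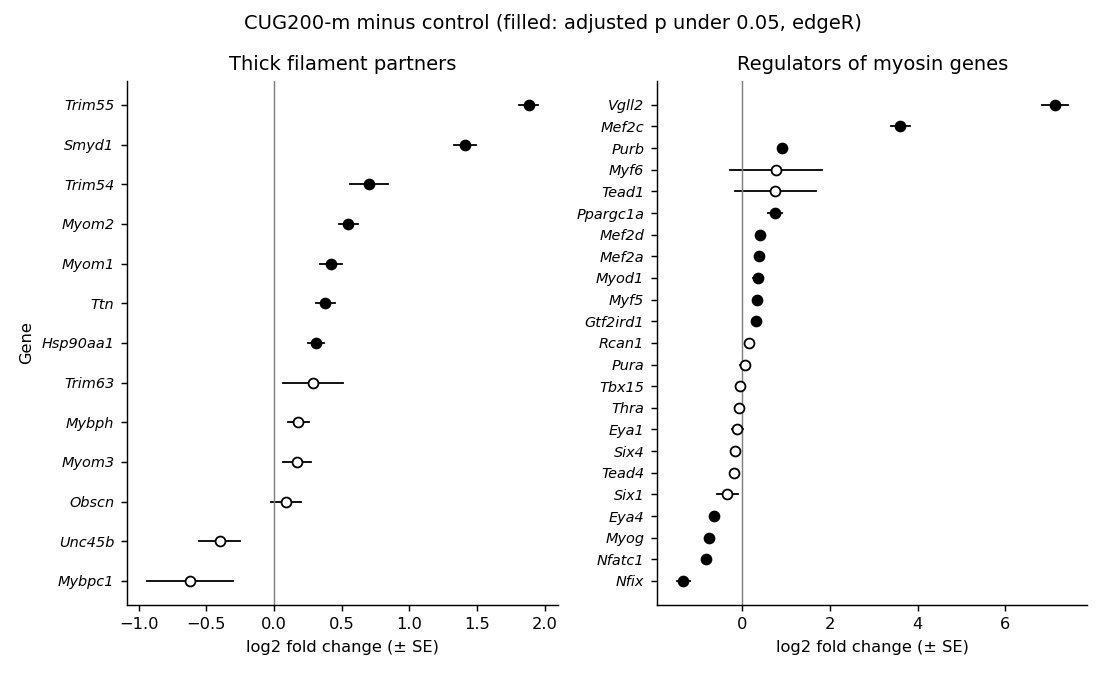
Log2 fold change (CUG200-m minus control) with its SE from edgeR for the tested thick filament partners (left) and regulators of myosin genes (right), filled where the adjusted p was under 0.05. All 7 filled points on the left lay above 0, and on the right Vgll2 stood highest at 7.13 and Nfix lowest at -1.33, with Prox1 left out because its fold is a lower bound.

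Markers of the labelled cell type were present in both groups. Of 10 genes of differentiated skeletal muscle, 5 were higher, 1 was lower and 4 did not pass, where 13.2% of all tested genes were higher and 15.5% lower. The summed level of the 10 was 3520 to 3880 TPM in the control and 4380 to 4580 TPM in CUG200-m. Tnnt3, the fast troponin T, had a log2 fold change of 1.04 (edgeR, adjusted p = 0.000297). Myog, which encodes myogenin, was the gene that was lower, from 203 ± 15.8 to 122 ± 10.2 CPM (log2 fold change -0.74, edgeR, adjusted p = 0.000665).

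Some markers of other cell types and states differed between the groups as well. For the counts below, the shares over all tested genes were 13.2% higher and 15.5% lower. Of 6 smooth muscle genes, 4 were lower and 0 were higher, and their summed level went from a range of 6590 to 6850 TPM to one of 2800 to 2930 TPM. The 4 were Acta2, Tagln, Cnn1 and Lmod1, with log2 fold changes of -1.11, -2.44, -4.52 and -2.91 (edgeR, adjusted p from 8.96e-07 to 5.79e-06), while the defining marker Myh11 was near 0 in both groups. All 4 proliferation genes were lower, with a summed level of 264 to 268 TPM against 167 to 173 TPM. Of 7 connective tissue genes, 6 were tested, 2 were higher and 4 were lower, at 4340 to 4630 against 3100 to 3330 TPM in sum, and Thy1 had at most 6 counts. Lum, a collagen-binding proteoglycan, had a log2 fold change of -3.19 (edgeR, adjusted p = 5.06e-05), and Col3a1, Pdgfra and Dcn were also lower. The 2 that were higher were Col1a1 and Dpt, with log2 fold changes of 0.53 and 0.94 (edgeR, adjusted p = 0.000323 and 0.00295). Of 8 cardiac genes, 5 were tested, with a median log2 fold change of 0.03. Nppb alone was higher and Nkx2-5 alone was lower (log2 fold change -2.07, edgeR, adjusted p = 0.00899). The summed level of the 8 was 435 to 520 against 447 to 501 TPM. Tnnt2 was the most abundant of them, at 269 and 275 CPM, and did not pass. Gata4 came next at 12.7 and 12.2 CPM, and Myl7 had at most 1 count. The part of these markers in the myosin results was not tested.

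The genes with the most similar pattern were sought by the root mean square difference in centred log2 CPM over the 6 libraries, among 9663 genes of at least 10 CPM on average. Parm1 (0.0645) and Il11ra1 (0.0652) were nearest to Myh1. Fbln7 (0.0765) and the smooth muscle gene Lmod1 (0.115) were nearest to Myh2, and Pttg1 (0.0298) and Fat1 (0.0365) to Myh4. For Myh3 the nearest were B4galt5 (0.0227) and Scaf4 (0.0353). Myh7b was nearest to Ift22 (0.0201) and Timp2 (0.035), and Myh7 to Larp1b (0.0703) and Faim (0.0828). Myh6, with Spc25 (0.128) and Fam107b (0.135), and Myh8, with Snrk (0.196) and Wdr83os (0.275), had no gene as close, and both had wide spreads between libraries.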

How the data were processed

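According to the labels and methods, the authors used Trim Galore for trimming, HISAT2 for alignment to the GRCm38 genome and StringTie for quantification. Versions, annotation and strand setting are not given in the sources used here. The deposited matrix gives whole-number estimated counts, which were not normalized. For each library the authors also deposited TPM, FPKM and coverage, the signal per base, from StringTie. FPKM was not used further. Between 7 and 13 gene identifiers appeared more than once per library table, and their TPM was summed. Of the identifiers, 55240 were found in GENCODE M21.

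Covered bases per count had a median near 75, and the lowest genes peaked at 300 covered bases, so about 4 counts stood for 1 read pair, or 18383021 to 23039347 read pairs per library. Estimated counts were tested as deposited with edgeR 4.0.16 in R 4.3.3 (filterByExpr, TMM factors of 0.977 to 1.03, glmQLFit, glmQLFTest, adjusted p under 0.05, CUG200-m minus control). The SE is the log2 fold change over the square root of the F statistic. Sums, shares and ratios were tested with exact two-sided permutation tests in scipy 1.17.1. The computations were tested on simulated data.

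The genes named are the 8 members, up to 4 genes per list past an absolute log2 fold change of 1, the nearest neighbours on the chromosome, and the 2 genes nearest in pattern. Myh9, Myh10, Myh11, Unc45b, Myog, Nppb, Tnnt2, Gata4 and the names of other called list genes were added after their values were seen. Members and lists were chosen with earlier results of these data known. Alternatives were DESeq2 1.42.0, other scalings and filters, limma 3.58.1 on log2(TPM + 1) and log2(TPM + 0.1), a replicate block, counts per read pair, leaving out each library and other length scalings. Coverage in place of TPM, glmTreat and the wider MEF2 pattern were added after the data were seen. No proteins are shown.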

Additional observations from a re-analysis of the deposited data

How the results depend on the processing

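Myh1 and Myh2 were lower in all 16 alternatives and Myh4 in 15, all but the glmTreat test against an absolute log2 fold change of 1, under which 2 members were lower instead of 4. The 1 higher member, Myh7b, was lost with DESeq2, without a filter, with limma on log2(TPM + 1) and log2(TPM + 0.1), with glmTreat and with the replicate block (0 members higher in each), and in every fit without a library (0 to 0). Members lower numbered 3 to 4 without a library, 5 with DESeq2 and with counts per read pair, and 3 without a filter and with both limma settings, where Myh7 did not pass (adjusted p = 0.0535, 0.152 and 0.195). Myh7 passed in 7 of the 16 alternatives, Myh7b in 4 and Myh8 in 3. With the block, 4 members were lower and Myh7b had an adjusted p of 0.0601. Same-numbered libraries deviated together only weakly (r = 0.131, 0.0687 and 0.0451), so the numbers were not taken as pairs. The log2 fold change of Myh3 ranged from -0.14 to 0.0468 over the fits without a library, above 0 only without the first CUG200-m library, and passed in none. The gain in the developmental share, 10.9 points, was 9.75 with counts per exonic length or coverage, 10.3 without length and 11.6 with Myh13 and Myh15 added, and the adult fast loss, -11.0, was -9.77 with counts per exonic length or coverage and -10.3 without length. The cause of these shifts was not tested. Of 128 alternative values of single members, 22 lost and 3 gained a call. Myh6, Myh7, Myh7b and Myh8 rested on at most 80 read pairs per library, and the part of depth in their calls was not tested.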
